A study of Homo sapiens with 12 samples.

Results

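The genes described here take up, store, export and sense cellular iron. They are 9 of the 57865 human genes over which the deposited transcript values were summed: TFRC and SLC11A2 for uptake, FTH1, FTL, NCOA4 and PCBP1 for storage, SLC40A1 for export, and IREB2 and ACO1 for sensing. They were chosen by name, and TFRC and FTL were included because they had been noted for differing with the drugs in these same libraries, so their drug values are given as a description with no test. RNA came from MOLM-14, KG-1a, MV4-11 and OCI-AML3, which are 4 established lines of acute myeloid leukaemia cells. Each was exposed for 12 h to pioglitazone at 10 µM, to darglitazone at 10 µM, or to the solvent DMSO as the control. The drugs belong to the thiazolidinediones, which are ligands that activate the nuclear receptor PPARγ. The comparisons asked how each drug altered the RNA of these genes, whether the drugs differed, and how the lines differed. Every line gave 1 library per treatment, so the line was the replicate (n = 4 lines per treatment), and no value within a single line had a replicate check.

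Iron bound to transferrin enters cells through the transferrin receptor encoded by TFRC and leaves the endosome through DMT1, the transporter encoded by SLC11A2. PCBP1 is a chaperone that hands iron to ferritin, a cage of FTH1 heavy and FTL light chains, and NCOA4 is the receptor that carries ferritin to the lysosome for release of its iron. Ferroportin, encoded by SLC40A1, is the known cellular iron exporter. When iron is scarce, the iron regulatory proteins encoded by ACO1 and IREB2 bind a hairpin in these mRNAs. Binding at the 5′ end blocks translation of ferritin and ferroportin, and binding in the 3′ UTR of TFRC protects that mRNA from decay.

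The hairpins are shown because they are the element that the iron regulatory proteins bind. A search of the GENCODE release 29 transcripts (GRCh38) looked on the sense strand for the loop CAGTGN, where N was A, C or T, after an unpaired C and between arms of 5 paired bases, G-U pairs allowed. The 29 bases around each match are printed 5′ to 3′, with the 6 loop bases in capitals.
TFRC 3′ UTR, chr3:196050979-196051007, minus strand: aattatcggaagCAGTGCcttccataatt
TFRC 3′ UTR, chr3:196050575-196050603, minus strand: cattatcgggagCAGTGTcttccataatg
TFRC 3′ UTR, chr3:196050510-196050538, minus strand: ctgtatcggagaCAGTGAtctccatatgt
TFRC 3′ UTR, chr3:196050463-196050491, minus strand: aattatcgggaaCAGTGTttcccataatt
FTH1 5′ UTR, chr11:61967574-61967602, minus strand: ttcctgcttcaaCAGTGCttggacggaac
FTL 5′ UTR, chr19:48965335-48965363, plus strand: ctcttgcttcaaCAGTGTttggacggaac
SLC40A1 5′ UTR, chr2:189580661-189580689, minus strand: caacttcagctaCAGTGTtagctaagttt
SLC11A2 3′ UTR, chr12:50988269-50988297, minus strand: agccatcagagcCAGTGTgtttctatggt

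The motif stood 4 times in the 3′ UTR of TFRC and once in the 5′ UTR of FTH1, FTL and SLC40A1. Among all protein-coding genes it was present in the 5′ UTR of 23 of 18417 (0.125%) and in the 3′ UTR of 104 of 18970 (0.548%). The SLC11A2 hairpin was found only when 1 base of the 3′ arm could be skipped, a looser form that 0.255% of genes held in the 5′ UTR and 1.11% in the 3′ UTR. IREB2 also had a looser match in its 3′ UTR, and no match was found in NCOA4, PCBP1 or ACO1. Transcripts with the hairpin carried from 88.7% to 100% of the FTH1 counts in a library. For SLC11A2, whose 34 transcripts differ at the 3′ end, they carried from 9.9% to 34.7%.

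Library totals ran from 1.1 to 64.24 M estimated counts. The shallowest library was OCI-AML3 with pioglitazone. A ribosomal RNA-derived entry, FP671120.3, made up 23.5% of counts for KG-1a with pioglitazone and 6.17% for OCI-AML3 with pioglitazone, and no more than 0.542% elsewhere. Genes specific to MV4-11 were present in the KG-1a darglitazone library at a median of 3.94% of their MV4-11 level (6 genes). Genes specific to KG-1a were present at 2.05% in the OCI-AML3 pioglitazone library (62 genes). In the MV4-11 DMSO library, genes specific to MOLM-14 were present at 2.19% (4 genes) and genes specific to OCI-AML3 at 1.55% (11 genes). At these shares the other lines would contribute 3.61% of the TFRC level there, 1.92% of FTH1 and 1.36% of FTL. Mitochondrially encoded genes held 8.44% to 11.1% of counts with pioglitazone, 7.0% to 13.6% with darglitazone and 6.94% to 10.3% with DMSO. All 8 myeloid markers were detected, with summed levels of 1040 to 2420 CPM (counts scaled to library size) with pioglitazone, 1070 to 2580 CPM with darglitazone and 1130 to 3020 CPM with DMSO. Of 13 erythroid markers, from a lineage that handles much iron, 7 were detected, but 11 of the 13 stayed under 1 CPM in every library. The globin genes HBB, HBA1 and HBG1 and also ALAS2, TRIM10 and AHSP were at 0. The highest erythroid marker was EPOR, which reached 18.4 CPM in MOLM-14 with DMSO. Erythroid sums were 3.51 to 16 CPM with pioglitazone, 3.35 to 18.2 CPM with darglitazone and 6.9 to 18.7 CPM with DMSO.

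Per length, ferritin light chain mRNA stood far above the rest of the group. In TPM, a level scaled to library size and transcript length, FTL had a median of 2440 over the 12 libraries (1460 to 7930) and FTH1 209 (104 to 646). TFRC followed at 179 TPM (54.4 to 299) and NCOA4 at 123 TPM (96 to 154). PCBP1 had a median of 39.4 TPM, SLC11A2 10.6 TPM, IREB2 9.83 TPM and ACO1 9.51 TPM. The ranges of SLC11A2, IREB2 and ACO1 overlapped almost wholly. SLC40A1 was lowest, with a median of 0.607 TPM and a range from 0 to 17. The top value came from the KG-1a darglitazone library, where short transcripts held more of its counts, and by CPM that library lay at 13.8, between the other KG-1a libraries.

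**Figure D1:**
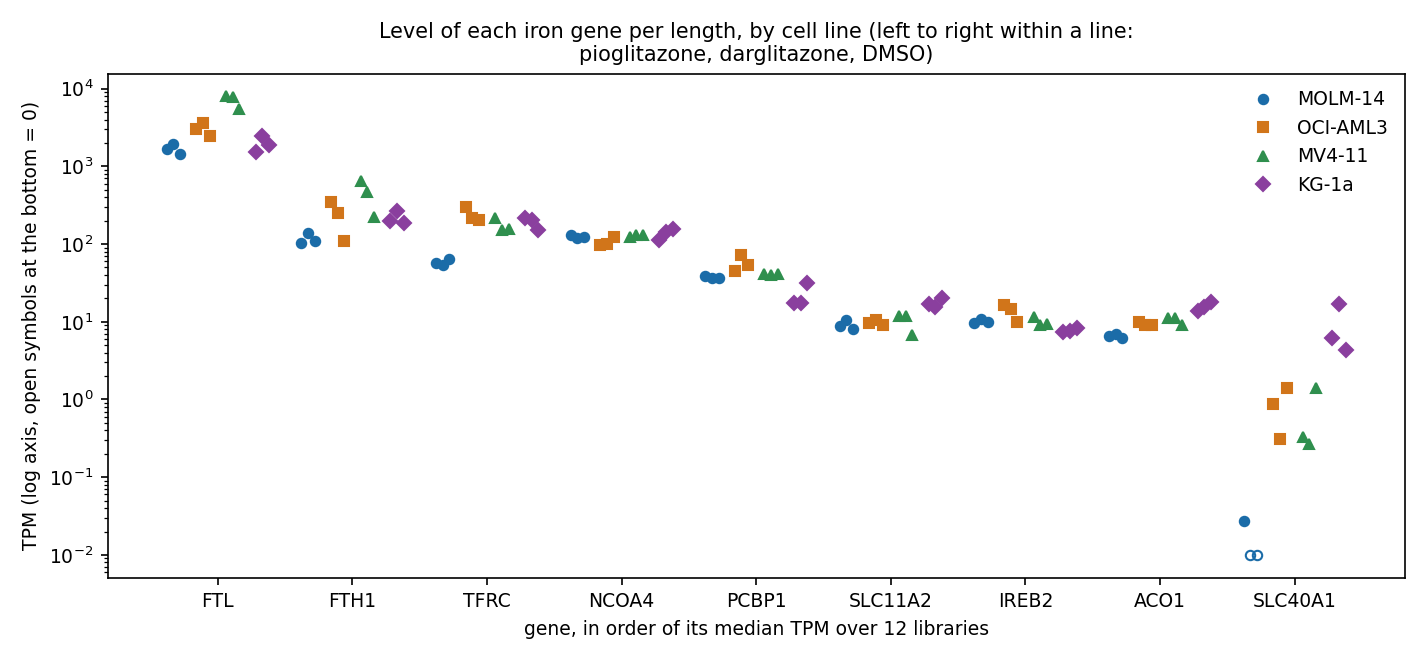
Level of each gene in TPM (log axis) in each of the 12 libraries, by cell line and, within a line, pioglitazone, darglitazone and DMSO from left to right; open symbols mark a level of 0. FTL lies above all other genes in every library, and SLC40A1 spans from 0 in MOLM-14 to 17 TPM in KG-1a.

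TFRC (ENSG00000072274.12, chromosome 3, 196027183 to 196082189, minus strand) was lower with darglitazone than with pioglitazone in every line. Its level in TMM-scaled CPM, the scale of all CPM values given per library here, was 830 in KG-1a, 507 in MV4-11, 805 in OCI-AML3 and 165 in MOLM-14 with pioglitazone. With darglitazone it was 498, 328, 576 and 141 CPM in the same order of lines, and with DMSO 488, 378, 637 and 173 CPM. In OCI-AML3, MV4-11 and KG-1a the pioglitazone library was the highest of the 3, and in MOLM-14 the DMSO library was. Darglitazone gave the lowest library in MOLM-14, OCI-AML3 and MV4-11. The ranges of the treatments over the lines overlapped throughout.

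The fitted log2 difference of TFRC was 0.37 (SE 0.12) for pioglitazone against DMSO. Line by line it was 0.77 in KG-1a, 0.42 in MV4-11, 0.34 in OCI-AML3 and -0.06 in MOLM-14, and without the KG-1a libraries the fitted value was 0.21. Darglitazone against DMSO gave -0.16 (SE 0.12), with line values between -0.29 in MOLM-14 and 0.03 in KG-1a. That value was -0.07 without the MOLM-14 DMSO library and -0.27 without the KG-1a DMSO library. The drugs were set against each other at the same dose and time, and here TFRC was lower with darglitazone in 4 of 4 lines, with a fitted log2 difference of -0.53 (SE 0.12). The difference was smallest in MOLM-14 (-0.23) and was -0.48 in OCI-AML3, -0.74 in KG-1a and -0.63 in MV4-11. Without the shallow OCI-AML3 and the rRNA-rich KG-1a pioglitazone libraries it was -0.41, and pioglitazone against DMSO was 0.23. These comparisons share libraries, so they are not separate pieces of evidence.

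SLC11A2 (ENSG00000110911.15, chromosome 12, 50979401 to 51028566, minus strand), the endosomal transporter gene, had no common direction across lines with either drug. It had 41.1, 19.3, 9.65 and 15.2 CPM in KG-1a, MV4-11, OCI-AML3 and MOLM-14 with pioglitazone. With darglitazone the values were 36.2, 15.9, 15.4 and 16.9 CPM, and with DMSO 37.1, 14.3, 18.2 and 15.7 CPM. KG-1a was the high line under every treatment. The low OCI-AML3 pioglitazone value rested on 11 counts, with a 95% Poisson interval of 4.82 to 17.3 CPM. The fitted log2 differences were 0.01 (interval -0.38 to 0.40) for pioglitazone and -0.02 (interval -0.39 to 0.35) for darglitazone against DMSO, and -0.03 (interval -0.41 to 0.36) between the drugs. Counted over protein-coding transcripts alone, the log2 difference for darglitazone against DMSO was -0.78 in place of -0.02, and it missed the threshold both ways (edgeR adjusted p = 1).

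FTH1 (ENSG00000167996.15, chromosome 11, 61959718 to 61967660, minus strand), which encodes the ferritin heavy chain with the ferroxidase site, had the largest log2 difference of the 9 genes against DMSO with either drug. With pioglitazone it stood at 209 CPM in KG-1a, 493 CPM in MV4-11, 255 CPM in OCI-AML3 and 78.9 CPM in MOLM-14. With darglitazone the levels were 218, 349, 185 and 110 CPM, and with DMSO 143, 156, 76.7 and 82.5 CPM. The means were 259 ± 173 CPM with pioglitazone, 215 ± 100 CPM with darglitazone and 115 ± 40.8 CPM with DMSO (SD, n = 4 lines each). Every drug library except MOLM-14 with pioglitazone was above the DMSO library of its line. In OCI-AML3 and MV4-11 both drug libraries exceeded DMSO by more than 1 on the log2 scale.

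The fitted log2 difference of FTH1 for pioglitazone against DMSO was 0.97 (SE 0.27, 95% interval 0.37 to 1.56). By line it was 0.54 in KG-1a, 1.66 in MV4-11, 1.73 in OCI-AML3 and -0.06 in MOLM-14. The unadjusted p was 0.00514 and the adjusted p over all 15424 genes tested was 0.642 (edgeR's quasi-likelihood test, Benjamini-Hochberg), so FTH1 did not pass the threshold of 0.05. DESeq2 gave an adjusted p of 0.00863 and limma-voom 0.472, and without the low-count filter edgeR gave 1.25e-05. Darglitazone against DMSO gave 0.82 (SE 0.26, interval 0.23 to 1.40, edgeR adjusted p = 1, or 0.00109 without the filter), higher in 4 of 4 lines. By line it was 0.60 in KG-1a, 1.16 in MV4-11, 1.27 in OCI-AML3 and 0.41 in MOLM-14. The drugs did not differ detectably from each other at -0.15, with an interval of -0.73 to 0.44 (edgeR adjusted p = 0.981), which leaves room for either drug to be higher.

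Several measures stood beside the FTH1 values. The OCI-AML3 pioglitazone value came from 291 counts, and without it and the KG-1a pioglitazone library the log2 difference for pioglitazone was 0.87. With mitochondrial genes and the rRNA-derived entry taken out of the table it was 0.96, and with counts from protein-coding transcripts alone 1.0. Without MOLM-14 it was 1.32 and without OCI-AML3 or MV4-11 it was 0.72. The smallest edgeR adjusted p after leaving out a line or a library was 0.0573, without the MOLM-14 pioglitazone library. At the share seen for its specific genes, MV4-11 would contribute 13.8 CPM of the 218 CPM of FTH1 in KG-1a with darglitazone. The log2 ratio there was 0.51 without that amount, against 0.60 with it. The 25 annotated pseudogenes of FTH1 together held 0.617% as many counts as the gene. BEST1, which overlaps FTH1 on the opposite strand, reached 5.46 CPM at most.

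The main transcript, FTH1-212, encodes 183 residues and held 52.0% of FTH1 counts on average (43.5% to 61.0%). Another 13.9% and 11.4% were assigned to FTH1-208 and FTH1-210, which are annotated as targets of nonsense-mediated decay. Both were at 0 in at least 1 library, as estimated counts split between similar transcripts can be.

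FTL (ENSG00000087086.14, chromosome 19, 48965301 to 48966878, plus strand), the ferritin light chain gene, is a single transcript of 175 residues in this table. It had 1700, 6280, 2300 and 1350 CPM in KG-1a, MV4-11, OCI-AML3 and MOLM-14 with pioglitazone. Levels with darglitazone were 2100, 6210, 2710 and 1630 CPM, and with DMSO 1570, 4020, 1810 and 1210 CPM. The DMSO library was the lowest of the 3 in every line, and darglitazone gave the highest in all but MV4-11. MV4-11 stood above every library of the other lines under all treatments.

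Fitted log2 differences of FTL were 0.32 (SE 0.09) for pioglitazone and 0.51 (SE 0.09) for darglitazone, each against DMSO and each positive in 4 of 4 lines. The pioglitazone value was 0.21 without the MV4-11 pioglitazone library and 0.20 without the MV4-11 line. Across lines the darglitazone differences were more even than those of FTH1, with an SD over the line values of 0.10 for FTL and 0.42 for FTH1. For darglitazone against pioglitazone the FTL difference was 0.19 (SE 0.09), at 0.30 in KG-1a, -0.02 in MV4-11, 0.23 in OCI-AML3 and 0.27 in MOLM-14. It was 0.29 without the MV4-11 pioglitazone library and 0.09 when the pioglitazone libraries of KG-1a and OCI-AML3 were left out. In KG-1a with darglitazone the MV4-11 share would amount to 245 CPM of FTL, and without it the log2 ratio to DMSO in that line was 0.24, against 0.42 with it. The 16 annotated FTL pseudogenes held 0.0471% as many counts as the gene.

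**Figure D2:**
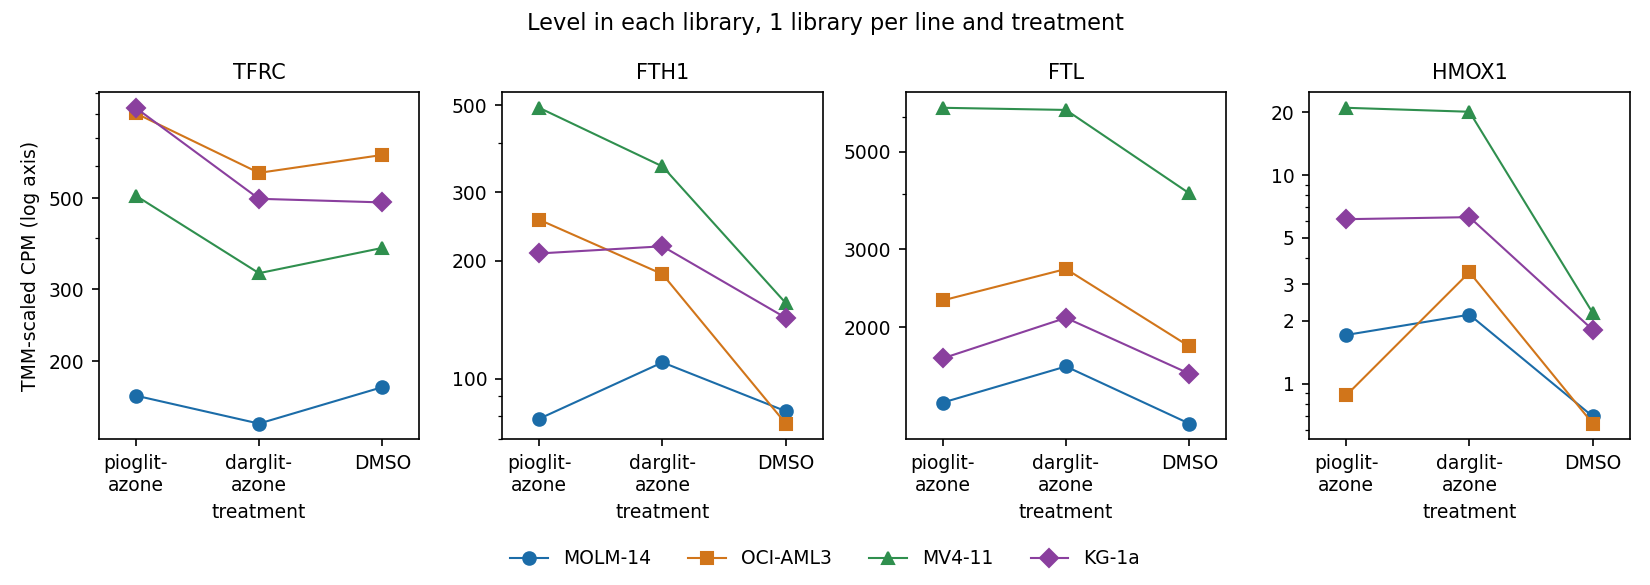
TMM-scaled CPM (log axes) of TFRC, FTH1, FTL and the haem oxygenase gene HMOX1 in each library, with 1 point per line and treatment and points of a line joined. FTL is lowest with DMSO in every line, FTH1 is lowest with DMSO in OCI-AML3, MV4-11 and KG-1a, and TFRC is lower with darglitazone than with pioglitazone in 4 of 4 lines.

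The balance between the ferritin chains followed from these values and does not depend on library scaling. The TPM ratio of FTL to FTH1 in OCI-AML3 was 8.59 with pioglitazone and 14.4 with darglitazone, against 22.5 with DMSO. In MV4-11 it was 12.3 with pioglitazone and 16.7 with darglitazone, against 24.7 with DMSO. In KG-1a it was 7.89 and 9.08 with the same drugs, against 10.2 with DMSO. The ratio was thus lowest with pioglitazone and highest with DMSO in these lines. MOLM-14 went the other way, with 16.3 under pioglitazone and 13.9 under darglitazone, against 13.5 under DMSO. As FTL had been chosen for its drug values, no test was made.

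Set against the receptor, summed ferritin mRNA was 8.11, 39.4, 11.2 and 31.6 times the TFRC level in KG-1a, MV4-11, OCI-AML3 and MOLM-14 with pioglitazone, in TPM. With darglitazone the ratios were 13.3, 54.9, 17.8 and 37.9, and with DMSO 13.7, 36.7, 12.5 and 24.5. Darglitazone gave the highest ratio in all lines but KG-1a, where its value differed from that of DMSO by -0.05 on the log2 scale. With pioglitazone the log2 shift from DMSO was -0.76 in KG-1a, 0.10 in MV4-11, -0.15 in OCI-AML3 and 0.36 in MOLM-14, with no common direction.

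**Figure D3:**
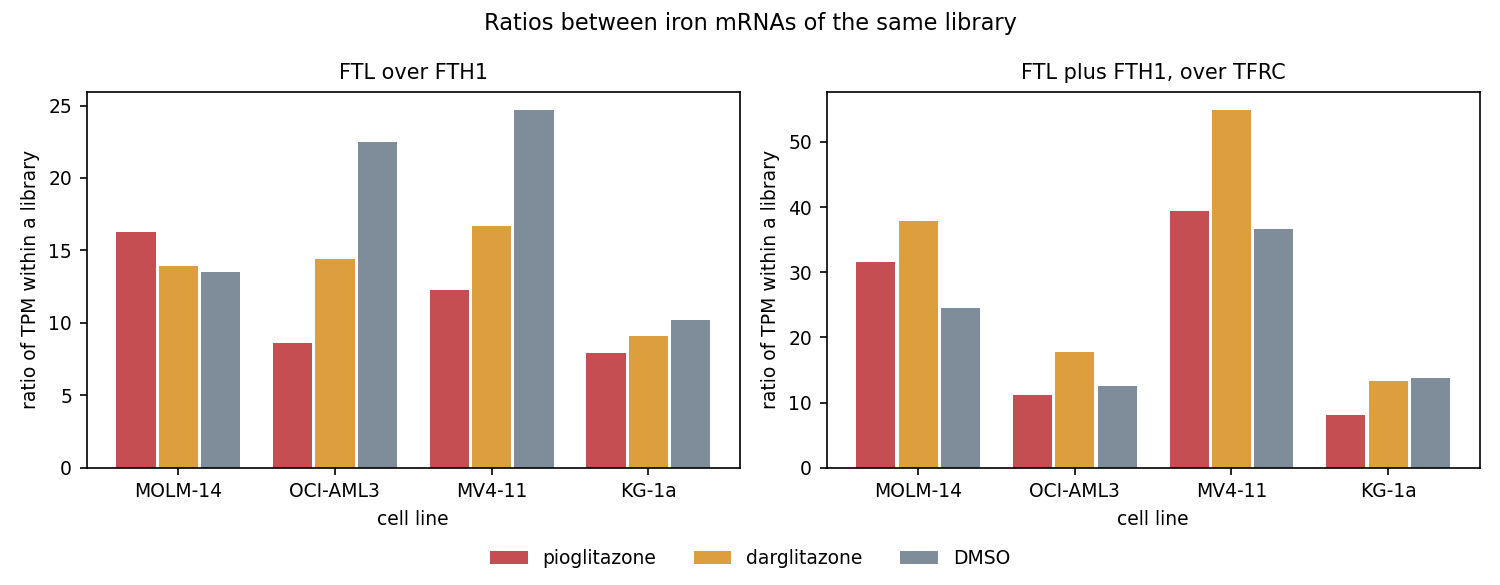
Ratios of TPM within each library, FTL over FTH1 (left) and FTL plus FTH1 over TFRC (right), by cell line, with 1 bar per library. FTL over FTH1 is lowest with pioglitazone in OCI-AML3, MV4-11 and KG-1a, and the ratio to TFRC is highest with darglitazone in MOLM-14, OCI-AML3 and MV4-11.

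NCOA4 (ENSG00000266412.5, chromosome 10, 46005088 to 46030714, minus strand), the ferritin-carrying autophagy receptor gene, varied least. It had 388, 305, 254 and 332 CPM in KG-1a, MV4-11, OCI-AML3 and MOLM-14 with pioglitazone. With darglitazone the values were 389, 314, 239 and 313 CPM, and with DMSO 402, 299, 310 and 324 CPM. Treatments lay within 0.07 of DMSO on the log2 scale in MOLM-14, MV4-11 and KG-1a, and OCI-AML3 was lower, at -0.28 with pioglitazone and -0.37 with darglitazone. The fitted differences from DMSO were -0.07 (interval -0.29 to 0.15, edgeR adjusted p = 0.967) with pioglitazone and -0.10 (interval -0.32 to 0.12, edgeR adjusted p = 1) with darglitazone. A pair of coding transcripts, NCOA4-204 of 614 residues and NCOA4-202 of 630 residues, held 50.5% and 42.8% of its counts on average.

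PCBP1 (ENSG00000169564.6, chromosome 2, 70087454 to 70089203, plus strand), the iron chaperone gene, was steady in MOLM-14 and MV4-11, where all libraries lay between 60.9 and 64.9 CPM. In OCI-AML3 it had 68.4 CPM with pioglitazone and 109 CPM with darglitazone, against 80.2 CPM with DMSO. In KG-1a it had 37.7 CPM with pioglitazone and 30.2 CPM with darglitazone, against 52.2 CPM with DMSO. The lines with a difference thus moved in opposite directions with darglitazone, by 0.45 and -0.79 on the log2 scale. The fitted differences from DMSO were -0.13 (interval -0.48 to 0.23) with pioglitazone and -0.04 (interval -0.39 to 0.31) with darglitazone. PCBP1-AS1, which overlaps it on the opposite strand, had 7.26 to 14.0 CPM.

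SLC40A1 (ENSG00000138449.10, chromosome 2, 189560579 to 189583758, minus strand) was close to the limit of detection in MOLM-14, with 2 counts in the pioglitazone library, 0 in the darglitazone library and 0 in the DMSO library. Its level with pioglitazone was 18.3 CPM in KG-1a, 1.03 CPM in MV4-11 and 2.63 CPM in OCI-AML3. With darglitazone these lines had 13.8, 0.671 and 0.903 CPM, and with DMSO 10.5, 0.622 and 3.23 CPM. KG-1a was highest under every treatment. The KG-1a level was 143 times a floor of 3 counts in the MOLM-14 library with pioglitazone, 43.1 times with darglitazone and 106 times with DMSO. That floor is a set value and leaves out counting error in both lines, so these are not lower bounds. The OCI-AML3 pioglitazone value rested on 3 counts (95% Poisson interval 0.543 to 7.69 CPM). Against DMSO its fitted log2 differences were 0.50 (interval -0.69 to 1.68) with pioglitazone and -0.41 (interval -1.54 to 0.72) with darglitazone. SLC40A1 was lower with darglitazone than with pioglitazone in 4 of 4 lines, at a fitted log2 difference of -0.90, but the interval ran from -2.07 to 0.26 (edgeR adjusted p = 0.98).

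The genes of the iron regulatory proteins showed small differences. IREB2 (ENSG00000136381.12, chromosome 15, 78437431 to 78501456, plus strand), which encodes the protein IRP2, had 26.5, 30.4, 50.0 and 27.2 CPM in KG-1a, MV4-11, OCI-AML3 and MOLM-14 with pioglitazone. With darglitazone it had 23.5, 29.1, 34.9 and 32.1 CPM, and with DMSO 21.4, 36.6, 32.6 and 32.6 CPM. The high OCI-AML3 value came from 57 counts and had a 95% Poisson interval of 37.9 to 64.8 CPM. The fitted differences from DMSO were 0.07 (interval -0.28 to 0.42) with pioglitazone and -0.04 (interval -0.38 to 0.30) with darglitazone.

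ACO1 (ENSG00000122729.18, chromosome 9, 32384603 to 32454769, plus strand) encodes cytosolic aconitase, which acts as IRP1 when it lacks its iron-sulfur cluster. It had 65.3, 37.3, 37.7 and 23.1 CPM in KG-1a, MV4-11, OCI-AML3 and MOLM-14 with pioglitazone. With darglitazone the levels were 61.3, 40.1, 28.8 and 25.3 CPM, and with DMSO 64.7, 28.6, 29 and 22.7 CPM. Only MV4-11 was above its DMSO library with both drugs by more than 0.30 on the log2 scale, at 0.38 and 0.49. The fitted differences were 0.17 (interval -0.13 to 0.47) with pioglitazone and 0.14 (interval -0.15 to 0.43) with darglitazone. The TPM ratio of ACO1 to IREB2 was 1.87 with pioglitazone and 2.09 with darglitazone, against 2.19 with DMSO, in KG-1a, and from 0.597 to 1.27 in the other lines. The 3 ACO1 transcripts encode the same number of residues, 889, and their shares were not stable. ACO1-203 held 94.4% of counts in the MV4-11 pioglitazone library and 0.335% in the MV4-11 DMSO library, so the gene sum is the value to read.

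Over the 7 genes other than TFRC and FTL, 0 passed the edgeR threshold in any of the 3 drug comparisons, and the same was true of 0% of all 15424 genes tested. At an unadjusted p under 0.05 there was 1 of 7 with pioglitazone, against 5.96% of all genes, and 1 of 7 with darglitazone, against 3.40% of all genes. FTH1 was that gene both times. Between the drugs there were 0 of 7, against 3.51% of all genes. DESeq2 called FTH1 alone of the 7 genes with pioglitazone, where 0.48% of all 15424 genes were called. It gave an adjusted p to only 2 of the 7 there, and the 0.48% is taken over genes with or without one. It called 0 of 7 with darglitazone and 0 of 7 between the drugs, where 3 of the 7 had an adjusted p. The backgrounds over all 15424 genes were 0.0389% and 0.0778%. With limma-voom 0 were called in each comparison, as over all genes. For darglitazone against pioglitazone the fitted log2 differences were -0.03 (interval -0.25 to 0.19) for NCOA4, 0.09 (interval -0.27 to 0.45) for PCBP1, -0.11 (interval -0.47 to 0.24) for IREB2 and -0.03 (interval -0.33 to 0.27) for ACO1. The median log2 difference of the 7 genes was 0.07 with pioglitazone, -0.04 with darglitazone and -0.03 between the drugs, beside medians over all genes of -0.02, 0.01 and 0.03.

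**Figure D4:**
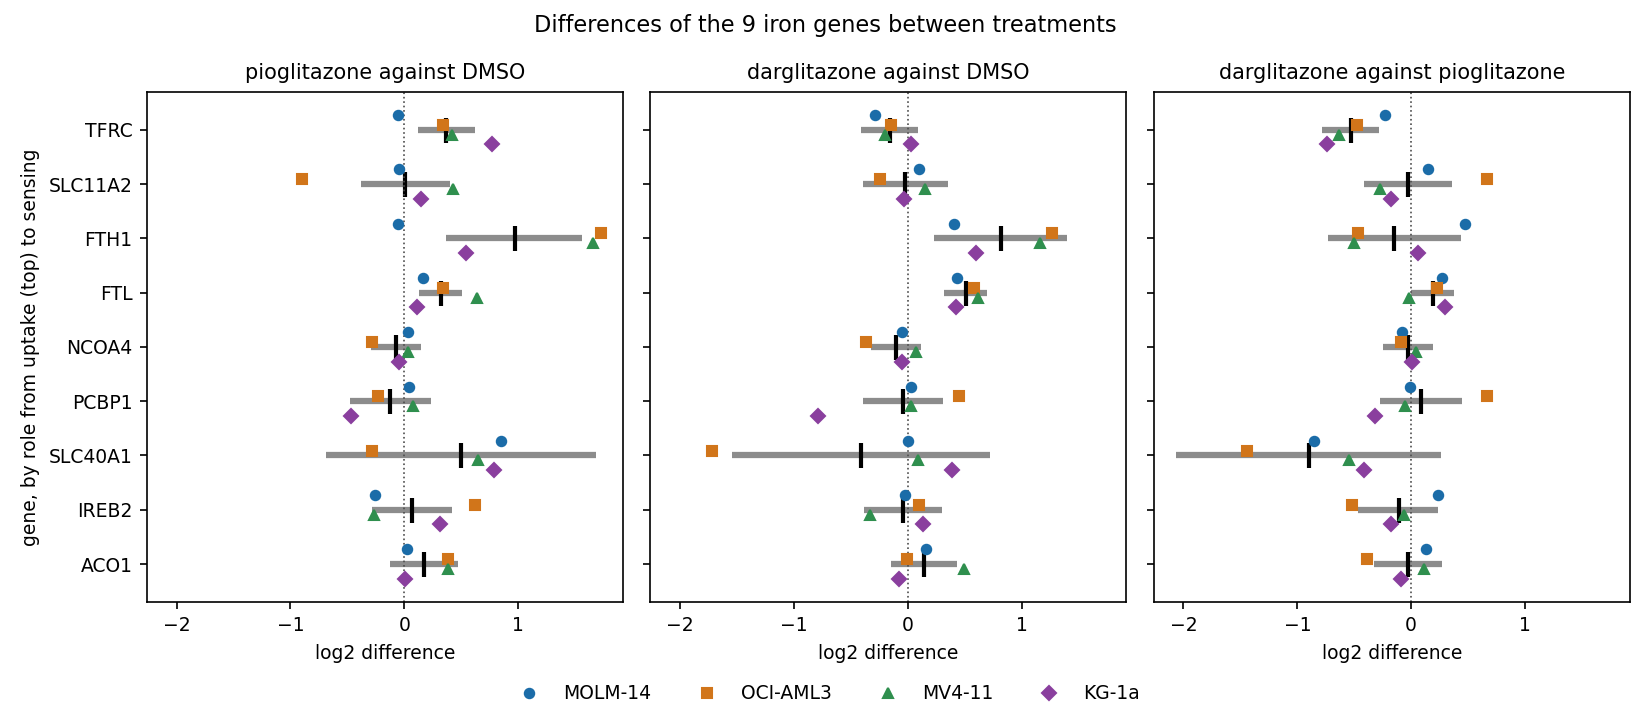
Log2 differences of the 9 genes in the 3 drug comparisons; coloured symbols are single lines (1 library against 1, prior count 2), black bars the fitted value and grey bars its 95% interval. FTH1 lies right of 0 in both comparisons with DMSO except in MOLM-14 with pioglitazone, and all TFRC symbols lie left of 0 for darglitazone against pioglitazone. TFRC and FTL were chosen for their drug values, so their intervals are a description and not a test.

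Whether the drug response of a gene differed between the lines was tested with a model that lets the mean response to the drugs vary by line. Of the 7 genes, 0 passed (edgeR F test with 3 residual degrees of freedom), while 1 gene of all those tested did (0.00648%). FTH1 had an unadjusted p of 0.0232 and an adjusted p of 1 in that edgeR test. DESeq2 and limma-voom gave it adjusted p-values of 0.825 and 0.366. At an unadjusted p under 0.05, FTH1 was 1 of 7, against 3.05% of all genes. As that model takes the mean over both drugs, it cannot address pioglitazone alone. Whether the absence of a pioglitazone difference for FTH1 sets MOLM-14 apart was not tested.

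Between the cell lines the same genes differed widely. All 8 genes whose passage through the low-count filter did not depend on a high line differed between the lines at an adjusted p under 0.05 (edgeR F test), as did 72.6% of all genes tested, so the share is read against a high background. SLC40A1 passed the filter through the OCI-AML3 and KG-1a libraries and 1 MV4-11 library and was not counted. Among the 8, IREB2 had the largest adjusted p (0.0442), and it missed the threshold with DESeq2-type size factors (0.0719), under DESeq2 (0.0622), under limma-voom (0.0685) and over protein-coding transcripts (0.223). It also missed without the OCI-AML3 line (0.0768) and without several single libraries, up to 0.165 without the KG-1a DMSO library. NCOA4 missed the threshold without the low-count filter (0.124). Without the KG-1a libraries 5 of the 8 passed, since SLC11A2 (adjusted p 0.953), NCOA4 (0.275) and IREB2 (0.398) no longer did in edgeR. Of the 5, PCBP1 (edgeR adjusted p = 0.0481) and ACO1 (0.041) passed narrowly. The share of all genes called in that fit was not counted, and the 72.6% is not its background. In such bulk libraries, less RNA per cell and fewer cells in a given state cannot be told apart.

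TFRC averaged 160 ± 16.7 CPM in MOLM-14, 673 ± 119 CPM in OCI-AML3, 404 ± 92.2 CPM in MV4-11 and 605 ± 195 CPM in KG-1a (SD over the 3 treatments). OCI-AML3 and KG-1a did not differ detectably, with a log2 difference of 0.17 and an interval of -0.11 to 0.46 (edgeR adjusted p = 0.3). KG-1a lay above MV4-11 by 0.57 (edgeR adjusted p = 0.00276), but without the KG-1a pioglitazone library this was 0.39 and missed the threshold (edgeR adjusted p = 0.0619). MV4-11 lay above MOLM-14 by 1.31 (edgeR adjusted p = 4.49e-06). Of all genes, edgeR called 51.5% between OCI-AML3 and KG-1a, 47.4% between MV4-11 and KG-1a and 40.7% between OCI-AML3 and MV4-11. With MOLM-14 it called 33.6% against OCI-AML3, 37.1% against MV4-11 and 52.7% against KG-1a.

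FTL was highest in MV4-11, and its other steps between lines were small. It averaged 5510 ± 1280 CPM in MV4-11, 2270 ± 447 CPM in OCI-AML3, 1790 ± 275 CPM in KG-1a and 1390 ± 213 CPM in MOLM-14. MV4-11 exceeded OCI-AML3 by 1.27 on the log2 scale (edgeR adjusted p = 3.29e-07), OCI-AML3 exceeded KG-1a by 0.33 (edgeR adjusted p = 0.0134), and KG-1a exceeded MOLM-14 by 0.36 (edgeR adjusted p = 0.00759). The step above KG-1a missed the threshold without the KG-1a pioglitazone library (edgeR adjusted p = 0.0885) or its darglitazone library (0.0563). The step above MOLM-14 missed it without the low-count filter (edgeR adjusted p = 0.168) and without the KG-1a DMSO (0.103), MOLM-14 pioglitazone (0.0536) or MOLM-14 darglitazone (0.0532) library. FTH1 had MV4-11 and MOLM-14 at the same ends, 1.71 apart (edgeR adjusted p = 0.00179), but no step between neighbouring lines passed in the edgeR fit. That fit takes the drug and DMSO libraries of a line together. With DMSO alone FTH1 was lowest in OCI-AML3, at 76.7 CPM, and had 156 CPM in MV4-11 and 143 CPM in KG-1a. The FTH1 steps were 0.70 from MV4-11 to KG-1a (adjusted p = 0.0831), 0.27 from KG-1a to OCI-AML3 (0.485) and 0.74 from OCI-AML3 to MOLM-14 (0.0944), all by edgeR. The step from MV4-11 to KG-1a passed with DESeq2 (adjusted p 0.0373), limma-voom (0.0334) and edgeR without the low-count filter (0.000298), and the step from OCI-AML3 to MOLM-14 with DESeq2 (0.0256) and edgeR without the filter (0.000784). Leaving out a line or a library moved the edgeR adjusted p of the first of these steps between 0.0193 and 0.251, and of the last between 0.00937 and 0.303.

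KG-1a was the high line for SLC11A2, SLC40A1, ACO1 and NCOA4. SLC11A2 averaged 38.1 ± 2.6 CPM in KG-1a and 14.4 to 16.5 CPM in the other lines, which were within 0.07 of one another on the log2 scale. ACO1 averaged 63.8 ± 2.13 CPM in KG-1a and 35.3 ± 5.98 CPM in MV4-11, a log2 difference of 0.86 (edgeR adjusted p = 0.000403). NCOA4 in KG-1a exceeded OCI-AML3, its lowest line, by 0.56 (edgeR adjusted p = 0.00116). PCBP1 and IREB2 were lowest in KG-1a and highest in OCI-AML3, with log2 differences of 1.12 for PCBP1 (edgeR adjusted p = 0.000277) and 0.66 for IREB2 (edgeR adjusted p = 0.0107). The IREB2 difference missed the threshold without the KG-1a DMSO library (edgeR adjusted p = 0.056) and over protein-coding transcripts (0.0785). KG-1a also carried lymphoid transcripts, with 8 lymphoid markers summing to 293 to 337 CPM there and NKG7 reaching 145 CPM. Their part in the line differences was not tested.

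Around these genes, 91 further genes of iron, haem and iron-sulfur metabolism were read as lists, and 70 of them were tested. The edgeR test called 0 of the 70 in each drug comparison. At an unadjusted p under 0.05, 1 was higher and 2 were lower with pioglitazone, where 2.09% and 3.87% of all genes were. With darglitazone 2 were higher and 1 lower than with DMSO, beside 1.76% and 1.65% of all genes. Between the drugs 2 were higher and 1 lower with darglitazone, beside 2.09% and 1.41% of all genes. DESeq2 called 1 of them, HMOX1 with darglitazone, where it called 0.0389% of all genes, and limma-voom called 0, as over all genes. With pioglitazone DESeq2 gave no adjusted p to HMOX1 or to most other list genes, so it could not call them there. The medians over the 70 genes were -0.07 with pioglitazone, -0.02 with darglitazone and -0.02 between the drugs.

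HMOX1, which encodes haem oxygenase 1 and so frees iron from haem, was the gene of the lists with the smallest p against DMSO for both drugs. It had 6.14, 21.0, 0.877 and 1.71 CPM in KG-1a, MV4-11, OCI-AML3 and MOLM-14 with pioglitazone. With darglitazone it had 6.28, 20.1, 3.42 and 2.14 CPM, and with DMSO 1.81, 2.18, 0.643 and 0.696 CPM. Each drug library was above the DMSO library of its line, although the OCI-AML3 pioglitazone value was a single count (95% Poisson interval 0.0222 to 4.89 CPM). The fitted log2 differences were 2.0 (SE 0.40, edgeR adjusted p = 0.276) and 2.24 (SE 0.38, edgeR adjusted p = 0.33). MV4-11 was the line with the largest differences for HMOX1 with both drugs, and for FTL with both.

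The other list genes had smaller values. SLC25A37, the mitochondrial iron importer mitoferrin-1, had log2 differences of 0.23 with pioglitazone (higher in 3 of 4 lines) and 0.33 with darglitazone (higher in 4 of 4 lines). SLC39A8, a metal transporter of the plasma membrane, had 36.0 ± 14.6 CPM with darglitazone, 44.3 ± 12.8 CPM with pioglitazone and 46.5 ± 14.6 CPM with DMSO (SD, n = 4 lines). Its log2 difference was -0.40 for darglitazone against DMSO and -0.34 against pioglitazone, lower in 4 of 4 lines both times. All of these missed the threshold in edgeR, with adjusted p-values of 0.9 or more.

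By list, the genes with a positive log2 difference are set beside those of all genes tested, of which 46.5% were positive with pioglitazone, 51% with darglitazone and 55% for darglitazone against pioglitazone. In iron uptake and the endosome, 4 of 13 tested genes were positive with pioglitazone, 2 with darglitazone and 5 between the drugs. In storage, chaperones and ferritin turnover the numbers were 6, 5 and 0 of 8 in the same order of comparisons, and in export and its control 1, 1 and 1 of 4. Most tested genes of the uptake list thus had negative values in each comparison, and all 8 tested genes of the storage list had one between the drugs. That list leaves out the storage genes described above, of which FTL (0.19) and PCBP1 (0.09) were positive there and FTH1 (-0.15) and NCOA4 (-0.03) negative. Haem synthesis and breakdown had 8, 8 and 6 of 12, and iron sensing 2, 3 and 2 of 5. Mitochondrial iron and cluster assembly had 6, 8 and 10 of 19, and cytosolic iron-sulfur cluster assembly 1, 6 and 7 of 9. These counts have no test, and the comparison between the drugs shares its libraries with those against DMSO.

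STEAP3, an endosomal ferrireductase gene of the uptake list, had a log2 difference of -0.30 for darglitazone against DMSO, and EXOC6, of the exocyst, was at -0.41 for darglitazone against pioglitazone. CIAO3, of cytosolic iron-sulfur cluster assembly, stood at 0.38 in that comparison (unadjusted p = 0.0227, edgeR adjusted p = 0.98). ALAD, of haem synthesis, stood at 0.37 for darglitazone against pioglitazone. None of these genes passed the threshold in edgeR.

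The genes whose levels moved most like TFRC and FTL across the 12 libraries, after the mean of each line was removed, were sought among 4761 protein-coding genes of at least moderate level. For TFRC they were SLC38A2 (Pearson r 0.897), MFSD14A (0.897), ACAT2 (0.891), THOC2 (0.887) and HMGCS1 (0.882). For FTL they included ATG16L2 (0.942), NQO1 (0.923), SATB1 (0.896) and MKRN1 (0.883). The points share libraries and their depth, and the values are a description over 12 libraries of 4 lines.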

How the data were processed

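The authors deposited 1 table of estimated counts per transcript for 12 libraries of total RNA made, per the labels' protocols, with a stranded kit after ribosomal RNA removal. The tools listed per the submitters' processing notes are DESeq2, featureCounts, STAR, FastQC and fastp, and the build is GRCh38. Of the values above 0, 89.8% were not whole (tolerance 1e-06). The tool behind the estimated counts and the annotation release are not given in the sources used here. GENCODE release 29 matched 99.96% of 203027 transcripts, and the 86 others were left out. Counts were summed per gene, rounded and filtered with filterByExpr by line (minimum count 10), leaving 15424 genes. Such counts can divide reads wrongly between similar transcripts and gene copies.

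edgeR 4.0.16 (R 4.3.3) scaled libraries by TMM and fitted line and treatment to all 12 libraries with a robust quasi-likelihood test (6 residual degrees of freedom), adjusted over all genes at 0.05. Each line gave 1 library per treatment, so the line pairs the libraries by design and stayed in the model. P-values rest on the spread left after both terms. For the drug comparisons this is the spread of the responses between lines. For the line comparisons the 3 libraries of a line, under 3 treatments, stand in for repeats, so these p-values do not measure the spread between repeat cultures. The labels name no batch. The script was tested on simulated data. DESeq2 1.42.0 and limma 3.58.1 (voom) were alternatives. Levels per length (TPM) used annotated transcript lengths. Single-line log2 ratios used a prior count of 2. Poisson intervals cover counting error only, and floors were set at 3 counts (0.0467 to 2.74 CPM). Intervals of fitted log2 differences come from the edgeR model. The text names the 9 genes, the 5 genes most like TFRC and FTL, transcripts of at least 10% of a gene's counts, and list genes with the smallest p, at most 3 a direction. Genes and lists were chosen with earlier results of these data known. Some genes that the naming rule selected are not reported here.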

Additional observations from a re-analysis of the deposited data

Results flagged for a closer look

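Levels of the 9 genes under each treatment and their log2 ratios in each drug comparison gave 54 groups of 4 values, 1 per line, in which the most extreme value was set against the range of its group (Dixon's critical value 0.829 at 95%). In 5 groups, all of them levels, the gap exceeded it. Chance alone gives about 1 in 20 independent groups, but these groups share libraries, include the ratios of TFRC and FTL, and include SLC40A1, a gene that passed the low-count filter through its high lines, so the number is a description. KG-1a stood apart for ACO1 with DMSO (64.7 CPM), for SLC11A2 with darglitazone (36.2 CPM), and for SLC40A1 with pioglitazone (18.3 CPM) and with darglitazone (13.8 CPM). OCI-AML3 stood apart for IREB2 with pioglitazone (50.0 CPM), a value of 57 counts in the shallowest library.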

How the results depend on the processing

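Of 525 alternative values of the drug comparisons for the 7 tested genes, 465 kept their direction and their side of the threshold. The 150 values of TFRC and FTL, which have no test, kept their sign and moved by less than the SD between lines. For neighbouring lines 542 of 594 values kept direction and side, 10 lost and 31 gained the call, and 11 turned. For the highest against the lowest line, alternatives chosen after seeing the data, 196 of 198 did, with IREB2 the exception. Both of these line totals include SLC40A1, which passed the low-count filter through its high lines, so they are a description. edgeR's count of 0 of 7 iron genes became 1 with DESeq2 for pioglitazone, and 1 without the low-count filter for pioglitazone and for darglitazone. The count of 0 among the 70 list genes became 1 with DESeq2 for darglitazone (beside 0.0389% of all genes), and 1 without the filter for each drug. For pioglitazone DESeq2 gave most list genes no adjusted p. The 8 genes that differed between lines became 5 to 8 when a line or a library was left out. The share of all genes called was not counted for these fits or for those without the filter, so these counts have no background to be read against. The order of the lines was the same by CPM as by TPM for 5 of 9 genes.

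The pairing is the cell line. Without this replicate block the count stayed at 0 of 7 in the 3 drug comparisons, FTH1 had a log2 difference of 1.18 with pioglitazone and 0.91 with darglitazone, and PCBP1 (0.05) and SLC40A1 (0.08) turned positive with darglitazone. The line test has no form without it.

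The cause of the other reversals was not tested. With limma-voom they were IREB2 with pioglitazone (-0.04), PCBP1 with darglitazone (0.07), ACO1 between the drugs (0.02) and SLC11A2 in MOLM-14 against OCI-AML3 (-0.12). Without the KG-1a and OCI-AML3 libraries of pioglitazone the last was -0.14, PCBP1 and IREB2 with pioglitazone were 0.03 and -0.19, and PCBP1, IREB2 and ACO1 between the drugs were -0.09, 0.14 and 0.01. Without the filter SLC11A2 with pioglitazone was -0.05 and PCBP1 in MV4-11 against MOLM-14 -0.02. Over protein-coding transcripts SLC11A2 and IREB2 with pioglitazone were -0.09 and -0.02.

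Leaving out a line or a library gave ranges that crossed 0. With pioglitazone these were -0.09 to 0.21 for IREB2, -0.13 to 0.01 for NCOA4, -0.21 to 0.04 for PCBP1 and -0.15 to 0.16 for SLC11A2. With darglitazone they were -0.15 to 0.06 for IREB2, -0.24 to 0.15 for PCBP1, -0.12 to 0.12 for SLC11A2 and -0.85 to 0.32 for SLC40A1, which was -0.41 over all libraries and 0.32 without the OCI-AML3 line. Between the drugs they were -0.14 to 0.06 for ACO1, -0.39 to 0.06 for FTH1, -0.25 to 0.02 for IREB2, -0.09 to 0.03 for NCOA4, -0.10 to 0.25 for PCBP1 and -0.14 to 0.10 for SLC11A2. For MV4-11 against MOLM-14 they were -0.07 to 0.15 for IREB2, -0.05 to 0.11 for PCBP1 and -0.10 to 0.19 for SLC11A2, and for MOLM-14 against OCI-AML3 -0.12 to 0.24 for SLC11A2. The test of the drug response between lines was not run without a DMSO library. With 1.1 M counts, the OCI-AML3 pioglitazone library limits SLC11A2, SLC40A1 and HMOX1 there to 11, 3 and 1 counts.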
